A study of Rattus norvegicus with 6 samples.

Results

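Respiratory complex I (NADH:ubiquinone oxidoreductase) is the entry point of NADH electrons into the mitochondrial respiratory chain, and its genes were examined in PC12 cells after NQO1 knockdown. The genes were the protein-coding rows of the count table whose symbol begins with Nduf, together with the mitochondrially encoded rows whose symbol begins with Mt-nd. This rule gave 48 of the 18746 genes of the table. They comprised 30 nuclear subunits, 7 assembly factors with Ndufaf symbols, 7 mitochondrially encoded subunits, Ndufa4 and Ndufa4l2, and 2 further rows, namely Ndufv3-ps1 and a second row named Ndufa13 on chromosome 7. Other subunits of the complex were not analysed here.

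PC12 cells originate from a pheochromocytoma of the rat adrenal gland, a tumour of chromaffin cells. They were cultured in serum-containing medium. By lipofection they were transfected with a reagent against NQO1 (3 samples, the NQO1 knockdown group) or with a control reagent (3 samples, the control group). The reagents were siRNAs, siNQO1 and a nontargeting siCtrl, in the methods of the study, and an shRNA and a control plasmid in the sample labels, and both sources give the same grouping. Polyadenylated RNA was sequenced, and the harvest time of the sequenced cells was not given, whereas cells for RT-qPCR were harvested 48 h after transfection. Only 1 targeting reagent is named, so an effect of losing NQO1 and another effect of that reagent cannot be told apart. The study calls the samples of a group biological replicates without saying whether each was a culture of its own, so part of the spread behind the p-values may be technical.

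Complex I passes electrons from NADH through a flavin and a chain of iron-sulfur clusters to ubiquinone and pumps protons across the inner mitochondrial membrane. Its core subunits are divided between genomes: those of the peripheral arm, which hold the redox centres, are nuclear, and those of the membrane arm, which pump protons, are encoded by mitochondrial DNA. Accessory subunits surround this core, and assembly factors build the complex without remaining in it. NQO1 is a flavoenzyme outside this complex that also reduces quinones with electrons from NADH or NADPH.

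The libraries held 28873824 to 39467230 reads in genes, and 12420 genes passed the filter on low counts. Nqo1 (ENSRNOG00000012772, chromosome 19) was at 369, 321 and 345 FPKM (fragments scaled by the authors for transcript length and for the mapped reads of the library) in the control libraries and at 80.8, 75.2 and 77.7 FPKM in the knockdown libraries. Its knockdown mean was 22.6% of the control mean, and the log2 fold change from the quasi-likelihood test of edgeR was -2.13 (SE 0.066, adjusted p = 1.54e-06). In bulk RNA, fewer cells with a transcript and less of it per cell cannot be told apart. The cell type label was set against marker genes. Of the 10 chromaffin markers listed, 8 were found in the table and none exceeded 1 FPKM in every library; Th and Dbh, enzymes of catecholamine synthesis, stayed at or below 0.09 and 0.12 FPKM. The highest single value of the list was 0.43 FPKM, for Gata3, and the sum over the list was 0.65 to 0.68 FPKM in control and 0.44 to 0.52 FPKM in knockdown. Of the 4 Schwann cell markers, 3 exceeded 1 FPKM in every library, with Sox10 at 192 to 233 FPKM and S100b at 169 to 250.4 FPKM, and their sum was 425 to 488 FPKM in control and 380 to 386 FPKM in knockdown. The fibroblast list summed to 46.0 to 51.4 FPKM, nearly all from Pdgfra, and the macrophage list to 0.88 to 1.45 FPKM. The defining chromaffin markers were therefore at or near 0 in all 6 libraries, and what this means for the genes below was not tested.

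NQO1 knockdown was accompanied by small changes in few complex I genes. Of the 48 genes, 46 passed the filter, and 4 of them had an adjusted p under 0.05 in edgeR: Ndufaf6 and Ndufv2 rose, and Ndufa10 and Ndufc2 fell. This share of 8.70% lies below the 12.6% of all genes tested, of which 5.27% rose and 7.38% fell. None of the 46 genes passed a fold of 2 together with the adjusted p, where 54 of all 12420 genes tested did. An unadjusted p under 0.05 was found for 12 of the 46, against 3596 of the 12420. The FPKM values of the groups did not overlap for 12 of the 46 genes, against 33.6% of all genes tested. The median log2 fold change was 0.07 over the 46 genes and 0.01 over all genes tested.

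The classes differed by orders of magnitude in level. The mean over the 6 libraries ran from 45.5 FPKM (Ndufs1) to 376 FPKM (Ndufa13) among the 30 nuclear subunits, with a median of 151 FPKM. The 7 Ndufaf genes ran from 4.68 FPKM (Ndufaf1) to 22.4 FPKM (Ndufaf3), with a median of 10.4 FPKM, so the median nuclear subunit stood 14.6 times as high. The ranges of these classes did not meet in any library: the highest Ndufaf value was 25.0 FPKM and the lowest value of a nuclear subunit was 43.3 FPKM. The mitochondrially encoded subunits ran from 141 FPKM (Mt-nd6) to 5820.3 FPKM (Mt-nd1), with a median of 1261 FPKM. FPKM is scaled for the length of a transcript but not for how well it was captured as polyadenylated RNA. Levels can therefore be set side by side between genes only as far as capture was alike, which was not tested.

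**Figure D1:**
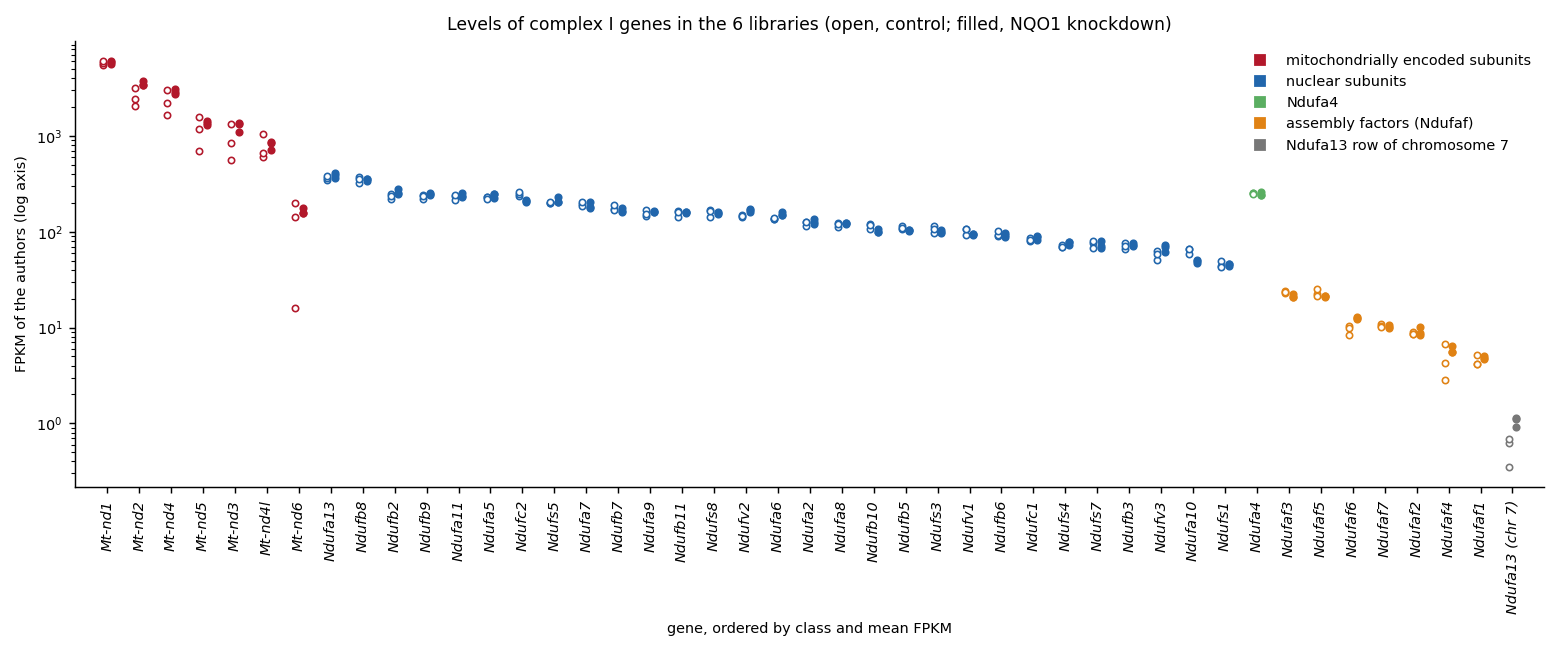
Level of complex I genes tested (log axis, FPKM of the authors), with 1 point per library, open for control and filled for NQO1 knockdown, and genes ordered by class and mean level. The nuclear subunits lie between 43.3 and 409 FPKM and the assembly factors between 2.81 and 25.0 FPKM, while the mitochondrially encoded genes reach 6051 FPKM and show the widest spread among the control libraries.

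The 7 nuclear core subunits carry the flavin and the iron-sulfur clusters and form the path of electrons to ubiquinone. Of these, 1 rose and 6 did not pass the test, so 14.3% were called, against 12.6% of all genes tested, of which 5.27% rose. Ndufv2, which holds an iron-sulfur cluster of the NADH-oxidising module, was at 143, 149 and 148 FPKM in control and 162, 173 and 169.6 FPKM in knockdown. Every knockdown library lay above every control library. The means were 146 ± 3.11 and 168 ± 5.52 FPKM (SD, n = 3 each), a log2 fold change of 0.21 (SE 0.048, 95% interval 0.11 to 0.32, adjusted p = 0.0227 from edgeR).

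The other core subunits of the NADH-oxidising module did not pass the test. Ndufv1, which binds NADH and the flavin, was at 106, 92.1 and 106 FPKM in control and 91.9, 94.6 and 94.4 FPKM in knockdown (log2 fold change -0.10, adjusted p = 0.342 from edgeR). Ndufs1, the largest core subunit of this module and the least abundant of the 30 nuclear subunits, was at 44.0, 49.98 and 43.3 FPKM in control and 43.5, 46.1 and 46.3 FPKM in knockdown. Its estimate was a log2 fold change of -0.0001 with a 95% interval of -0.14 to 0.14 (adjusted p = 0.999 from edgeR). The groups overlapped for both genes.

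Core subunits of the ubiquinone-reducing module did not pass the test. Ndufs3 was at 114, 96.0 and 108 FPKM in control and 96.5, 98.7 and 104 FPKM in knockdown (log2 fold change -0.08, adjusted p = 0.501 from edgeR). Ndufs7, which holds the last iron-sulfur cluster before ubiquinone, was at 75.4, 67.1 and 79.1 FPKM in control and 67.3, 70.6 and 79.9 FPKM in knockdown (log2 fold change -0.01, adjusted p = 0.938 from edgeR). Ndufs8 was at 167, 142 and 166 FPKM in control and 154, 159 and 156 FPKM in knockdown (log2 fold change -0.004, adjusted p = 0.978 from edgeR). The groups overlapped for these 3 genes, and control replicate 2 was the lowest control library for each.

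Both genes that fell are accessory subunits of the membrane arm. Of 16 such genes 2 were called (12.5%), both lower, and the median log2 fold change was 0.06. Of all genes tested, 12.6% were called in either direction and 7.38% fell. Ndufa10, an accessory subunit on the matrix face of the membrane arm, was at 66.4, 58.0 and 65.9 FPKM in control and 50.2, 47.1 and 49.9 FPKM in knockdown. The lowest control library stood above the highest knockdown library. The means were 63.4 ± 4.73 and 49.1 ± 1.70 FPKM (SD, n = 3 each), and the log2 fold change was -0.36 (SE 0.066, 95% interval -0.51 to -0.21, adjusted p = 0.0114 from edgeR).

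Ndufc2, a small membrane subunit, was at 238, 249.5 and 263 FPKM in control and 211, 217 and 204 FPKM in knockdown. Its groups did not overlap either. The means were 250.2 ± 12.5 and 211 ± 6.53 FPKM (SD, n = 3 each), and the log2 fold change was -0.23 (SE 0.058, 95% interval -0.37 to -0.10, adjusted p = 0.0341 from edgeR). The most abundant nuclear subunit, Ndufa13 (chromosome 16), was at 351, 361 and 379 FPKM in control and 367, 388 and 409 FPKM in knockdown, and it overlapped between groups (log2 fold change 0.11, 95% interval -0.02 to 0.24, adjusted p = 0.248 from edgeR). Next in level was Ndufb8, at 349 ± 25.2 FPKM in control and 347 ± 9.11 FPKM in knockdown (SD, n = 3 each), with a log2 fold change of 0.01 (95% interval -0.14 to 0.15). Ndufb5, at 110.0 ± 3.03 and 104 ± 1.14 FPKM, did not overlap between groups and was not called (log2 fold change -0.07, adjusted p = 0.342 from edgeR). Ndufb10 and Ndufb2 had intervals that left out 0 (-0.28 to -0.01 and 0.01 to 0.29) but adjusted p-values of 0.146 and 0.157 in edgeR.

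None of the 7 accessory subunits of the peripheral arm passed the test of edgeR, whereas DESeq2 called Ndufv3 (adjusted p = 0.0367). An unadjusted p under 0.05 was found for 3 of the 7, against 3596 of all 12420 genes tested. Estimates were above 0 for 6 of the 7, against 6422 of the 12420, with a median log2 fold change of 0.10. The estimates nearest to the threshold belonged to Ndufa6 (log2 fold change 0.16, adjusted p = 0.0666 from edgeR), Ndufv3 (0.26, adjusted p = 0.0895) and Ndufs4 (0.14, adjusted p = 0.0926). Ndufa6 was at 135, 137 and 139.7 FPKM in control and 149, 149 and 159 FPKM in knockdown. Ndufs4 was at 68.8, 72.1 and 69.5 FPKM in control and 73.0, 77.9 and 79.0 FPKM in knockdown. Ndufs4 is a subunit near the NADH-oxidising module whose loss in mice is used as a model of Leigh syndrome. The groups did not overlap for Ndufa6 and Ndufs4 and overlapped for Ndufv3, at 62.6, 51.1 and 58.2 FPKM in control and 61.1, 73.0 and 69.8 FPKM in knockdown. The most abundant of the 7 was Ndufa5, at 227 ± 8.36 FPKM in control and 241 ± 14.2 FPKM in knockdown (SD, n = 3 each).

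Over all 30 nuclear subunits, 1 rose, 2 fell and 27 did not pass the test, so 10% were called against 12.6% of all genes. The estimates ran from -0.36 to 0.26 on the log2 scale, 18 above 0 and 12 below, with a median of 0.06. The groups did not overlap for 7 of the 30, where 33.6% of all genes tested had no overlap. Ndufa6, Ndufs4 and Ndufb5 were among the 7, besides the genes called. The 95% intervals of the 27 genes that were not called all lay within ±0.5 on the log2 scale (1.41-fold), from -0.28 at the lower end (Ndufb10) to 0.46 at the upper end (Ndufv3). The replicates were close: the median coefficient of variation was 5.93% in control and 3.82% in knockdown. Reads of these genes made up 0.427%, 0.402% and 0.424% of the reads in the control libraries and 0.418%, 0.425% and 0.437% in the knockdown libraries, ranges that overlap.

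**Figure D2:**
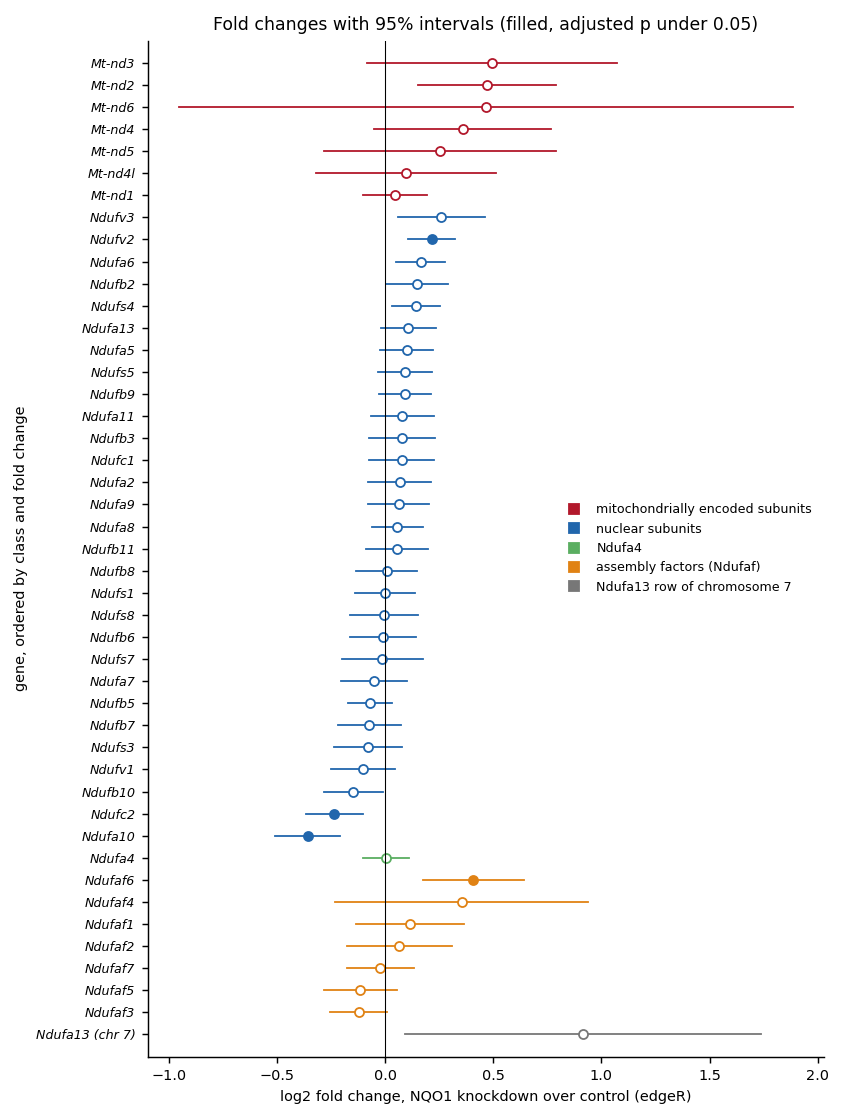
Log2 fold change of NQO1 knockdown over control for complex I genes tested (points) with 95% intervals (lines) from edgeR, ordered by class and estimate, with filled points for an adjusted p under 0.05. The nuclear subunits crowd between -0.36 and 0.26, the mitochondrially encoded genes all lie to the right of 0 with wide intervals, and Mt-nd6 has the widest, from -0.95 to 1.89.

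Nuclear complex I promoters are known to carry sites for factors that drive respiratory genes, among them NRF1, ETS factors such as GABPA, YY1 and estrogen-related receptors. Promoters of RefSeq (build GRCr8, from 250 bases before to 50 bases after the transcription start) were matched by symbol for 33 of 37 nuclear genes, 27 subunits and 6 assembly factors, and searched on both strands for TGCGCA (the core of the NRF1 site), CCGGAAG (ETS), AAGATGG (YY1) and AAGGTCA (the core of the estrogen-related receptor site). TGCGCA stood in 9 of the 27 subunit promoters (33.3%) and in 7.24% of all 33469 promoters. CCGGAAG stood in 6 of 27 (22.2%) against 8.75% of all, AAGATGG in 6 of 27 (22.2%) against 7.01%, and AAGGTCA in 2 of 27 (7.41%) against 4.61%. At least 1 of these 4 motifs was found in 17 of 27 subunit promoters (63.0%), in 2 of 6 Ndufaf promoters (33.3%) and in 24.5% of all promoters. These shares are descriptions, since a match is not a binding site.

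The 150 bases before the start are shown for the 3 nuclear subunits that passed the test and, for its run of motifs, for Ndufa11, a membrane-arm subunit that was not called (log2 fold change 0.08, adjusted p = 0.451 from edgeR). Capitals mark any of the 4 motifs, and coordinates are those of GRCr8. Ndufv2 (chr9:113157521-113157670, minus strand) holds 1 TGCGCA, 120 bases before the start, whereas the windows of Ndufa10 (chr9:100489265-100489414, minus strand) and Ndufc2 (chr1:161123040-161123189, plus strand) hold none of the 4. Ndufa11 (chr9:1637464-1637613, plus strand) holds 3 copies of TGCGCA end to end, starting 98, 92 and 86 bases before the start.
Ndufv2: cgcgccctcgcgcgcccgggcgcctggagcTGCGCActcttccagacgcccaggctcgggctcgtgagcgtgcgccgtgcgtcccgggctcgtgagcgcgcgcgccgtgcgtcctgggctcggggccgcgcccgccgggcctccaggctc
Ndufa10: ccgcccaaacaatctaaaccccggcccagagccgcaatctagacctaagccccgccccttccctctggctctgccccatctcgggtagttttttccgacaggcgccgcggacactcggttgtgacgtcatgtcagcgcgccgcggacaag
Ndufc2: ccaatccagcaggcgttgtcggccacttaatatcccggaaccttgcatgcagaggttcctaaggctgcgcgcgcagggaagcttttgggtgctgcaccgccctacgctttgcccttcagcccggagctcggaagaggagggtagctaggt
Ndufa11: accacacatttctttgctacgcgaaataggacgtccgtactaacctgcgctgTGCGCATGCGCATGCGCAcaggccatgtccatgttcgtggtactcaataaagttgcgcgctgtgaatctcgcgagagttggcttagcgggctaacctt

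The assembly factors were low in level, and 1 of 7 passed the test (14.3%, against 12.6% of all genes tested, of which 5.27% rose). Ndufaf6 (chromosome 5), which acts early in assembly and is needed for the mitochondrially encoded ND1 protein to enter the complex, was at 10.4, 9.94 and 8.30 FPKM in control and 12.2, 12.7 and 12.8 FPKM in knockdown. Every knockdown library exceeded every control library. The means were 9.55 ± 1.11 and 12.5 ± 0.295 FPKM (SD, n = 3 each), and the log2 fold change was 0.41 (SE 0.102, 95% interval 0.18 to 0.64, adjusted p = 0.0347 from edgeR).

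Ndufaf3 and Ndufaf4 act together on the early ubiquinone-reducing module. Ndufaf3 was at 23.9, 22.8 and 23.6 FPKM in control and 20.9, 20.8 and 22.2 FPKM in knockdown, without overlap (log2 fold change -0.12, adjusted p = 0.205 from edgeR). Ndufaf4 was at 2.81, 6.70 and 4.25 FPKM in control and 6.40, 5.50 and 5.55 FPKM in knockdown (log2 fold change 0.35, 95% interval -0.23 to 0.94, adjusted p = 0.403 from edgeR). Control replicate 1 held 51.3% of the mean of the other 2 control libraries for Ndufaf4, and control replicate 2 lay above all knockdown libraries.

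Ndufaf5, which hydroxylates an arginine of the Ndufs7 protein, was at 22.5, 25.0 and 21.3 FPKM in control and 20.6, 21.2 and 21.2 FPKM in knockdown, the lowest control and the highest knockdown library nearly touching (log2 fold change -0.11, adjusted p = 0.348 from edgeR). Ndufaf7, an arginine methyltransferase of the mitochondrial matrix, was at 11.0, 10.3 and 10.2 FPKM in control and 10.2, 9.90 and 10.6 FPKM in knockdown (log2 fold change -0.02, adjusted p = 0.863 from edgeR). Ndufaf1, a factor of the membrane-arm intermediates, was at 4.21, 5.14 and 4.19 FPKM in control and 4.80, 4.70 and 5.01 FPKM in knockdown (log2 fold change 0.11, adjusted p = 0.539 from edgeR). Both genes overlapped between groups. Ndufaf2, a late assembly factor related to the subunit Ndufa12, was at 9.04, 8.65 and 8.52 FPKM in control and 10.0, 8.87 and 8.29 FPKM in knockdown, and its groups overlapped as well (log2 fold change 0.07, adjusted p = 0.724 from edgeR).

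Assembly factors with other names were counted from a separate list. Of 12 such rows, which include a second row named Chchd4, 1 fell (8.33%, where 7.38% of all genes fell) and none rose. Their median log2 fold change was -0.02. The gene that fell was Chchd4 on chromosome 4, an oxidoreductase of the intermembrane space that imports cysteine-rich proteins, among them complex I subunits. It was at 14.2, 12.2 and 12.8 FPKM in control and 9.66, 7.87 and 7.50 FPKM in knockdown, without overlap (log2 fold change -0.63 with an SE of 0.121, adjusted p = 0.0129 from edgeR). A second row with the symbol Chchd4, on chromosome 1, was at 3.58 to 5.22 FPKM in control and 2.69 to 4.07 FPKM in knockdown (log2 fold change -0.35, adjusted p = 0.334 from edgeR), and whether these rows share reads was not tested.

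**Figure D3:**
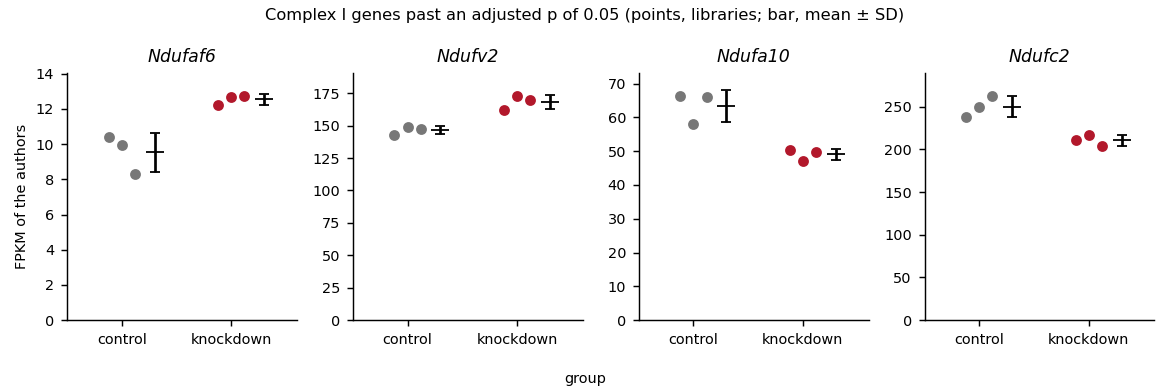
FPKM of the 4 complex I genes with an adjusted p under 0.05 (points, single libraries; bars, mean ± SD of 3 libraries; each axis starts at 0). Ndufaf6 and Ndufv2 stand higher and Ndufa10 and Ndufc2 lower in the knockdown libraries, with no overlap between groups and changes of at most 0.41 on the log2 scale.

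The 4 calls differed in how far they depended on single libraries. Ndufa10 lost its call only when control replicate 3 was left out (log2 fold change -0.32, adjusted p = 0.0512 from edgeR), whereas Ndufv2 and Ndufaf6 lost theirs when any library other than control replicate 2 was left out, and Ndufc2 when control replicate 3 or any knockdown library was left out. The highest adjusted p in these fits was 0.117 for Ndufv2, 0.146 for Ndufaf6 and 0.110 for Ndufc2. The direction of all 4 was the same in each of them.

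The mitochondrially encoded subunits form the proton-pumping core of the membrane arm. All 7 had estimates above 0, with a median log2 fold change of 0.36, and none passed the test of edgeR. Mt-nd2 alone had an unadjusted p under 0.05, and it was called by edgeR's exact test, its likelihood ratio test and voom but not by DESeq2. The 6 other protein-coding genes of the mitochondrial genome, which encode subunits of complexes III, IV and V, also had estimates above 0, with a median of 0.26, none called and 2 at an unadjusted p under 0.05. Transcripts of the mitochondrial genome took 5.28 ± 1.08% of reads in control and 6.25 ± 0.260% in knockdown (SD, n = 3 each), a difference of 0.973 percentage points with an exact two-sided permutation p of 0.3, where the smallest p that 3 against 3 samples allow is 0.1. The Mt-nd genes alone took 1.30%, 1.94% and 1.62% of the reads in the control libraries and 1.91%, 1.99% and 1.85% in the knockdown libraries, and control replicate 2 lay inside the knockdown range.

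Mt-nd2 was the gene nearest to the threshold, at 2047, 3195 and 2405 FPKM in control and 3418, 3706 and 3366 FPKM in knockdown. It was the only Mt-nd gene without overlap between groups. Its log2 fold change was 0.47 (SE 0.141, 95% interval 0.15 to 0.79, adjusted p = 0.0624 from edgeR). Mt-nd1 was the most abundant and the steadiest, at 5493, 5721 and 6051 FPKM in control and 5693, 5973 and 5990.5 FPKM in knockdown (log2 fold change 0.05, 95% interval -0.10 to 0.19, adjusted p = 0.689 from edgeR). It was the only one of the 7 whose interval lay within ±0.5 on the log2 scale.

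Mt-nd3 was at 565, 1321 and 844 FPKM in control and 1346, 1374 and 1090.5 FPKM in knockdown (log2 fold change 0.50, adjusted p = 0.238 from edgeR). Mt-nd4 was at 1662, 3016 and 2196 FPKM in control and 2865, 3114 and 2755 FPKM in knockdown (log2 fold change 0.36, adjusted p = 0.227 from edgeR). Control replicate 2 lay within the knockdown range for both genes, and the other 2 control libraries lay below it. Mt-nd4l, which is transcribed together with Mt-nd4, was at 598.5, 1043 and 667 FPKM in control and 849, 873 and 720.1 FPKM in knockdown (log2 fold change 0.10, adjusted p = 0.770 from edgeR).

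Mt-nd5 was at 698, 1576 and 1195 FPKM in control and 1434, 1373 and 1292 FPKM in knockdown (log2 fold change 0.25, adjusted p = 0.521 from edgeR). Mt-nd6, the only one of the 7 encoded on the light strand of mitochondrial DNA, was at 16.1, 199 and 142 FPKM in control and 178, 156 and 157 FPKM in knockdown (log2 fold change 0.47, 95% interval -0.95 to 1.89, adjusted p = 0.666 from edgeR). Control replicate 2 lay above all knockdown libraries for Mt-nd4l, Mt-nd5 and Mt-nd6. Control replicate 1 held 277 reads of Mt-nd6 against 4198 in control replicate 2. The study describes strand-specific sequencing, but the sources used here do not say whether counting used strand. Without it, reads of the opposite strand cannot be told apart. How well Mt-nd6 was captured as polyadenylated RNA was not tested.

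The spread of these genes lay in the control group. Their median coefficient of variation was 31.1% in control and 6.31% in knockdown. Control replicate 1 was the lowest of all 6 libraries for each of the 7 genes, and its level as a share of the mean of the other 2 control libraries was 93.3% for Mt-nd1, 73.1% for Mt-nd2, 70.0% for Mt-nd4l, 63.8% for Mt-nd4, 52.2% for Mt-nd3, 50.4% for Mt-nd5 and 9.43% for Mt-nd6. For the 30 nuclear subunits the same share ran from 89.4% to 114%, with a median of 105%. On the log2 scale, 5 of these 30 lay above their control mean in control replicate 2, against 20 in control replicate 1 and 28 in control replicate 3. Relative to the other 2 control libraries, control replicate 1 was thus lower to an unequal degree among mitochondrial genes. The median log2 deviation of the 7 genes from their control mean was -0.43, 0.47 and 0.0002 in control replicates 1, 2 and 3. Log2 levels of all genes tested correlated at 0.986 (control replicates 1 and 2), 0.989 (2 and 3) and 0.993 (1 and 3). Which control library departs from the others was not tested. The levels of Mt-nd2 relative to Mt-nd1 were 37.3%, 55.9% and 39.7% in the control libraries and 60.0%, 62.0% and 56.2% in the knockdown libraries. The summed reads of Mt-nd genes were 3.04, 4.83 and 3.82 times those of the nuclear subunits in control and 4.58, 4.68 and 4.25 times in knockdown.

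**Figure D4:**
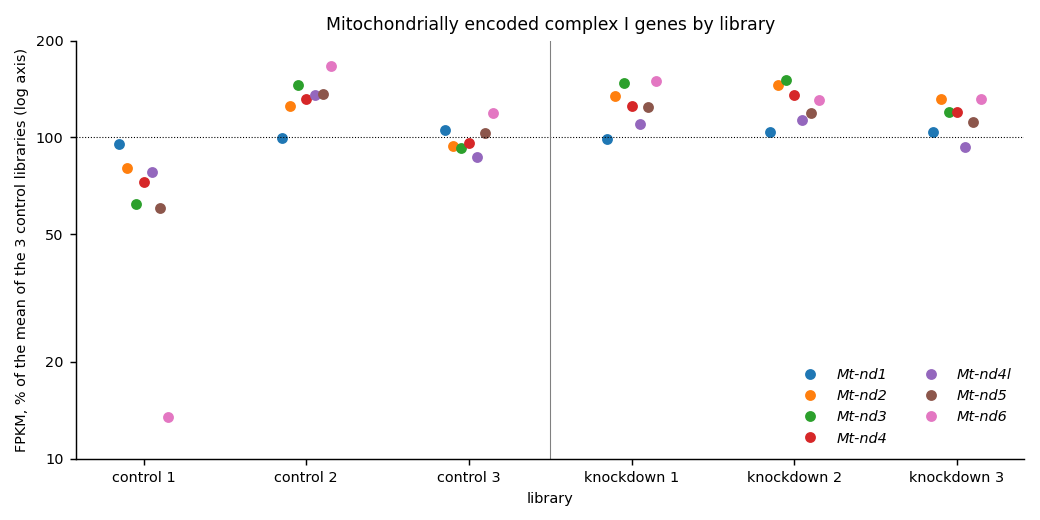
FPKM of the 7 Mt-nd genes in each library as a percentage of the mean of the 3 control libraries (log axis, dotted line at 100%). Control replicate 1 lies below 100% for every gene and at 13.5% for Mt-nd6, control replicate 2 lies above 100% for all but Mt-nd1 (99.4%), and the knockdown libraries run from 93.6% to 151%.

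The estimates of the Mt-nd genes turned on the control libraries. Without control replicate 1 the median log2 fold change of the 7 genes was -0.01 and none was called, with Mt-nd1, Mt-nd4l, Mt-nd5 and Mt-nd6 below 0. In that comparison 7.97% of all genes were called, and among the 46 complex I genes 2 were called, Ndufa10 and Ndufc2. Without control replicate 2 the median of the 7 genes was 0.60 and 5 of them were called higher, namely Mt-nd2, Mt-nd3, Mt-nd4, Mt-nd4l and Mt-nd5. In that comparison 33.3% of all genes were called, and 17 of the 46 complex I genes (37.0%) were called, 12 higher and 5 lower, of which 10 were nuclear subunits and 2 were assembly factors. The part of library differences in these values was not tested.

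Ndufa4 carries a complex I symbol but is known as a subunit of cytochrome c oxidase, complex IV. It was at 253, 251 and 249 FPKM in control and 242, 244 and 262 FPKM in knockdown. Its estimate lay close to 0 with a narrow interval (log2 fold change 0.005, 95% interval -0.10 to 0.11, adjusted p = 0.958 from edgeR), and its sign changed under 5 other settings that kept all libraries. Its relative Ndufa4l2, a gene known to respond to hypoxia, was listed at 0 to 0.16 FPKM, with 0 to 7 reads, and did not pass the filter. Ndufv3-ps1, with 0 to 3 reads, did not pass it either. The second Ndufa13 row (ENSRNOG00000021688, chromosome 7) held 5 to 22 reads, at 0.35, 0.63 and 0.69 FPKM in control and 1.15, 0.92 and 1.12 FPKM in knockdown, and was not called (log2 fold change 0.91, 95% interval 0.09 to 1.74, adjusted p = 0.136 from edgeR), except by limma on log2 FPKM (adjusted p = 0.0321 and 0.0462 with pseudocounts of 1 and 0.1). It shares its symbol with the gene on chromosome 16, which held 5492 to 8803 reads per library, and its few reads are uncertain.

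The nuclear genes of complexes II to V, chosen by symbol, were set beside complex I as its nearest neighbours in the respiratory chain. Symbols alone decided, so Atp5s and Atp5sl, neither of them called, are included, and whether each row encodes a subunit was not checked. Of 44 such rows tested, 2 rose and 3 fell (11.4%, against 12.6% of all genes). Their median log2 fold change was 0.05, close to the 0.06 of the nuclear complex I subunits. The 3 that fell encode subunits of ATP synthase. Atp5a1, a subunit of its catalytic part, was at 661, 571 and 616 FPKM in control and 409.8, 419 and 428 FPKM in knockdown (log2 fold change -0.54, adjusted p = 0.00159 from edgeR), without overlap. Atp5c1 (log2 fold change -0.29, adjusted p = 0.00689 from edgeR) and Atp5d (-0.36, adjusted p = 0.0101) fell as well, whereas Atp5b and Atp5e of the same catalytic part were not called (-0.04, adjusted p = 0.706, and 0.20, adjusted p = 0.0844). Atp5j, a subunit of the peripheral stalk of ATP synthase, rose (0.24, adjusted p = 0.0145), as did Cox7c, a small subunit of complex IV (0.30, adjusted p = 0.0160). Cox7c lost its call when any library other than control replicate 2 was left out (adjusted p up to 0.111 in edgeR), and Atp5j when any knockdown library was left out (up to 0.0863). The difference between the complexes was not tested.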

How the data were processed

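The 6 libraries (3 NQO1 knockdown, 3 control) were grouped from the sample labels. According to the methods of the study, the authors aligned cleaned reads to the rat genome (RGSC6) with TopHat2 and used uniquely mapped reads, and the processing notes of the submitters also name bcl2fastq and edgeR. The counting tool, and any use of strand in it, is not given in the sources used here. Overlapping, antisense and near-identical genes may therefore share reads. The counts, deposited as whole reads per gene, are not normalized. FPKM values are those the authors deposited, for 18674 genes.

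The test was the quasi-likelihood test of edgeR 4.0.16 in R 4.3.3 (filterByExpr, TMM, glmQLFit, glmQLFTest) on all 6 libraries without a block. P-values were adjusted by Benjamini-Hochberg over all 12420 genes that passed the filter. The common biological coefficient of variation came to 0.109, at 28873824 to 39467230 reads per library. A gene was called when its adjusted p was under 0.05, and calls that also passed a fold of 2 were counted separately. Levels and SDs are of FPKM, and log2 fold changes are of counts. The script was tested on simulated counts.

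The genes and lists were chosen with earlier results of these data known. Values in every library are given for Nqo1, the Mt-nd genes, the 7 nuclear core subunits, Ndufaf genes, Ndufa4, called members and the most and least abundant nuclear subunit, and up to 6 called genes of each list of other genes are named. Other members were named after their values were seen.

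Alternatives were other scalings, mitochondrial genes left out of scaling, no filter or a filter of 1 CPM in 3 libraries, edgeR's exact test and likelihood ratio test, DESeq2 1.42.0, limma 3.58.1 (voom, and log2 FPKM with pseudocounts of 1 and 0.1), a replicate block, and fits that left out 1 library each. Whether the replicate numbers pair the libraries is not settled, and the main test did not pair them. A result that these rules select is not reported here. Splicing was not analysed here.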

Additional observations from a re-analysis of the deposited data

How the results depend on the processing

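Across 19 alternatives, Nqo1 stayed between log2 fold changes of -2.19 and -2.10. Calls among all genes numbered 1350 to 1807 under other scalings, filters and tests and 518 to 4200 when 1 library was left out, against 1571. The nuclear subunits gave 2 to 4 calls under the former and 0 to 10 under the latter, the Ndufaf genes 0 to 2 and the Mt-nd genes 0 to 5 when 1 library was left out. Mt-nd2 was the 1 Mt-nd gene called with no filter, with the exact test, with the likelihood ratio test, with voom and with the replicate block, with adjusted p-values of 0.0144 to 0.0441. The difference in the share of mitochondrial reads was 0.457 to 1.53 percentage points with 1 library left out.

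The replicate block called 1350 genes, among them Ndufa10, Ndufv2 and Mt-nd2, and 0 Ndufaf genes; Ndufc2 (adjusted p = 0.0603 from edgeR) and Ndufaf6 (0.0522) lost their calls. Deviations of same-numbered libraries correlated at -0.038, 0.161 and 0.057. Control replicates 2 and 3 correlated best with the knockdown library of their own number, and control replicate 1 with knockdown replicate 3 (0.149). These values do not settle whether the numbers pair the libraries, which the main test treated as unpaired.

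For the 46 complex I genes tested and 7 called genes of the other lists (53 in all), 1005 values were obtained under an alternative. Of these, 915 kept direction and side of the threshold, 30 lost and 22 gained a call, and 38 changed sign, all of them uncalled. Of the gained calls 13 arose without control replicate 2, and the others were those of Mt-nd2, Ndufv3 (no filter, adjusted p = 0.0475, and DESeq2, 0.0367) and the second Ndufa13 row. Ndufa4 changed sign under library size alone (-0.0011), the CPM filter (-0.0081), DESeq2 (-0.0001) and both FPKM fits (-0.0095), Ndufs1 under upper-quartile scaling (0.0123), no filter (0.0043), voom (0.0016) and the block (0.0023), Ndufs7 (0.0011) and Ndufb6 (0.0036) under upper-quartile scaling, Ndufb8 under the CPM filter (-0.005) and both FPKM fits (-0.0041), and Ndufs8 under upper-quartile scaling (0.0087), no filter (0.0006), voom (0.0011) and the block (0.0000). With 1 library left out, Ndufa4 ran from -0.0353 to 0.0092, Ndufs1 from -0.05 to 0.063, Ndufs7 from -0.089 to 0.050, Ndufs8 from -0.081 to 0.039, Ndufb6 from -0.063 to 0.0508, Ndufb8 from -0.0548 to 0.031, Ndufb11 from -0.0109 to 0.0804, Ndufaf2 from -0.035 to 0.123, Mt-nd1 from -0.0087 to 0.0927, Mt-nd4l from -0.079 to 0.370, Mt-nd5 from -0.028 to 0.534 and Mt-nd6 from -0.069 to 1.02. The cause was not tested. With 3 libraries a group, a change inside the interval of a gene that was not called is not excluded.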

Other observations

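Regulators of nuclear respiratory genes, the factors whose motifs are given with the promoters among them, were counted as a further list. Of 13 such genes tested, 1 fell and none rose (7.69%, against 12.6% of all genes called and 7.38% that fell). Their median log2 fold change was -0.05, against 0.01 over all genes tested. Nrf1, a transcription factor of nuclear respiratory genes whose site holds TGCGCA, was at 10.8, 10.5 and 10.9 FPKM in control and 8.34, 8.50 and 9.35 FPKM in knockdown, without overlap. The log2 fold change of -0.28 (SE 0.064) had an adjusted p of 0.0247 in edgeR, and the gene lost its call when control replicate 3, knockdown replicate 1 or knockdown replicate 2 was left out. The 30 nuclear subunits had a median log2 fold change of 0.06, and a relation between Nrf1 and these genes was not tested.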
